A study of Mus musculus with 9 samples.

Results

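Genes for the noncollagen part of the muscle extracellular matrix, including a small set typical of tendon, were followed in mouse gastrocnemius, a calf muscle. The 42 genes were listed by name, and each was read from the brightest probe set annotated to it alone, which gave values for 39 of 42 genes among 18193 genes measured. Fbn1, Loxl2 and Efemp2 were not analysed here, because no probe set was listed to them alone. The measured genes comprised 8 small leucine-rich proteoglycans, 10 elastic fibre genes, 8 matricellular and adhesive glycoproteins, 5 genes typical of tendon and cartilage, and 8 basement membrane genes. The mice were young adults of the outbred CD-1 stock, sampled at day 14. The sham group had sham surgery and a placebo pellet, the castration group was castrated and given a placebo pellet, and the testosterone group was castrated and given a 2.5 mg testosterone pellet with 60-day release. Each group had 3 Affymetrix arrays, and every array held RNA pooled from 3 animals, so an SD is the spread between pools. Sham mice kept their testes, whereas the hormone of the testosterone group came only from the pellet. Per the labels' protocols, fat and connective tissue that was not muscle were trimmed off at dissection, and the amount left on each muscle is not stated.

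Skeletal muscle fibres are wrapped in a basement membrane, in which laminin and nidogen with the proteoglycan perlecan form a sheet on the fibre surface. Fibroblasts between the fibres lay down collagen fibrils, whose growth and spacing are set by small leucine-rich proteoglycans such as decorin, biglycan, lumican and fibromodulin. Elastic fibres are built from elastin on a fibrillin scaffold with fibulins and microfibril-associated proteins and are cross-linked by lysyl oxidases. Matricellular proteins such as SPARC and periostin modulate how cells and collagen interact, and tenomodulin, COMP and chondroadherin are abundant in tendon or cartilage.

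The start regions of 5 of these genes are shown because these are the genes that had both an unadjusted p under 0.05 for testosterone against castration and a single promoter entry. Each run is the 250 bases before the RefSeq start in GRCm38.p6, read 5′ to 3′ along the gene. Capitals mark the androgen receptor half-site AGAACA or its complement TGTTCT. The regions are chr11:55420081-55420330 on the minus strand for Sparc, chrX:73483351-73483600 on the plus strand for Bgn, chr9:108479612-108479861 on the plus strand for Lamb2, chr8:69887393-69887642 on the minus strand for Cilp2 and chr10:97606955-97607204 on the plus strand for Kera.
Sparc: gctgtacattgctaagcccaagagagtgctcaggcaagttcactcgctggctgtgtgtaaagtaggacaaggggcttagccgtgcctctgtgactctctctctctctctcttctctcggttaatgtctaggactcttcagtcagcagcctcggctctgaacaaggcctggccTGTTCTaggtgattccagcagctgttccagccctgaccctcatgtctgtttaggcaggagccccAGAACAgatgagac
Bgn: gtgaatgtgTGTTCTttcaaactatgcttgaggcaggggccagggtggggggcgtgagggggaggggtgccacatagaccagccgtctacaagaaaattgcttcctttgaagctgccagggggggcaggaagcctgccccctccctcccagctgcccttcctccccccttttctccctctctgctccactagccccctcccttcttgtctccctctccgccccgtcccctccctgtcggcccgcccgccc
Lamb2: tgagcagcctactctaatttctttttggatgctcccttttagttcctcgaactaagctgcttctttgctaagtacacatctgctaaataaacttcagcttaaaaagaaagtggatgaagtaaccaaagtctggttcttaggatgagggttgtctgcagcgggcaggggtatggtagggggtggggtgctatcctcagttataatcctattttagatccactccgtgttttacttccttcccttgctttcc
Cilp2: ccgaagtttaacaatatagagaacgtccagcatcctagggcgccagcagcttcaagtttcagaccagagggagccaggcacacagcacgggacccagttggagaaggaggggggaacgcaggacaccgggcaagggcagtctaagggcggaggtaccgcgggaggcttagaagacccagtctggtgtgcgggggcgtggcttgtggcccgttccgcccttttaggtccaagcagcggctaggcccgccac
Kera: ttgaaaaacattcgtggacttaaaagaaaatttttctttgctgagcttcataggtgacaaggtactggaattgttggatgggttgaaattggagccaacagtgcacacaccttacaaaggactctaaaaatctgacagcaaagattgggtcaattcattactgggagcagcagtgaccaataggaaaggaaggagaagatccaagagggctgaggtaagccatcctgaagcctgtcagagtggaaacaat
Sparc held the half-site at 78 and 14 bases before the start, Bgn held it at 241, and Lamb2, Cilp2 and Kera held none in this window. The 26 measured genes with a promoter entry had 31 entries. Of these entries 6 held the half-site on either strand, against 16.1% of all 32851 promoters in the table. They belonged to 6 genes (Bgn, Fbln1, Lama2, Mfap2, Sparc and Tnxb). The full palindromic androgen response element was in 3 promoters of the table and in none of the 26 genes. A match is a description of these letters only.

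Fibre markers fitted the labelled tissue: Acta1, skeletal alpha-actin, lay between 14.17 and 14.24 and Ckm, muscle creatine kinase, between 13.96 and 14.03 on the log2 scale of all values given here. Array medians over all probe sets were 3.15 to 3.26. The genes Aspn, Efemp1, Thbs1 and Nid2 averaged below 3.58, the median of all gene means, so the size of their differences is uncertain. Fbln1, Thbs2 and Tnc averaged 3.65, 3.71 and 3.73, just above that median, so their differences call for the same caution. The arrays sham 2 and testosterone 2 stood apart, with mean correlations of 0.972 and 0.981 to the other 8 arrays, against 0.989 to 0.991 for the remaining 7. Sham 2 was the lowest of all 9 arrays for 27 of 39 matrix genes, against 30.6% of all genes, and testosterone 2 was lowest for 6, against 14.1% of all genes. Counts over the 39 genes, and the differences of the fully described genes, are therefore also given for the 7 arrays without sham 2 and testosterone 2, a choice made with the values known.

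**Figure D1:**
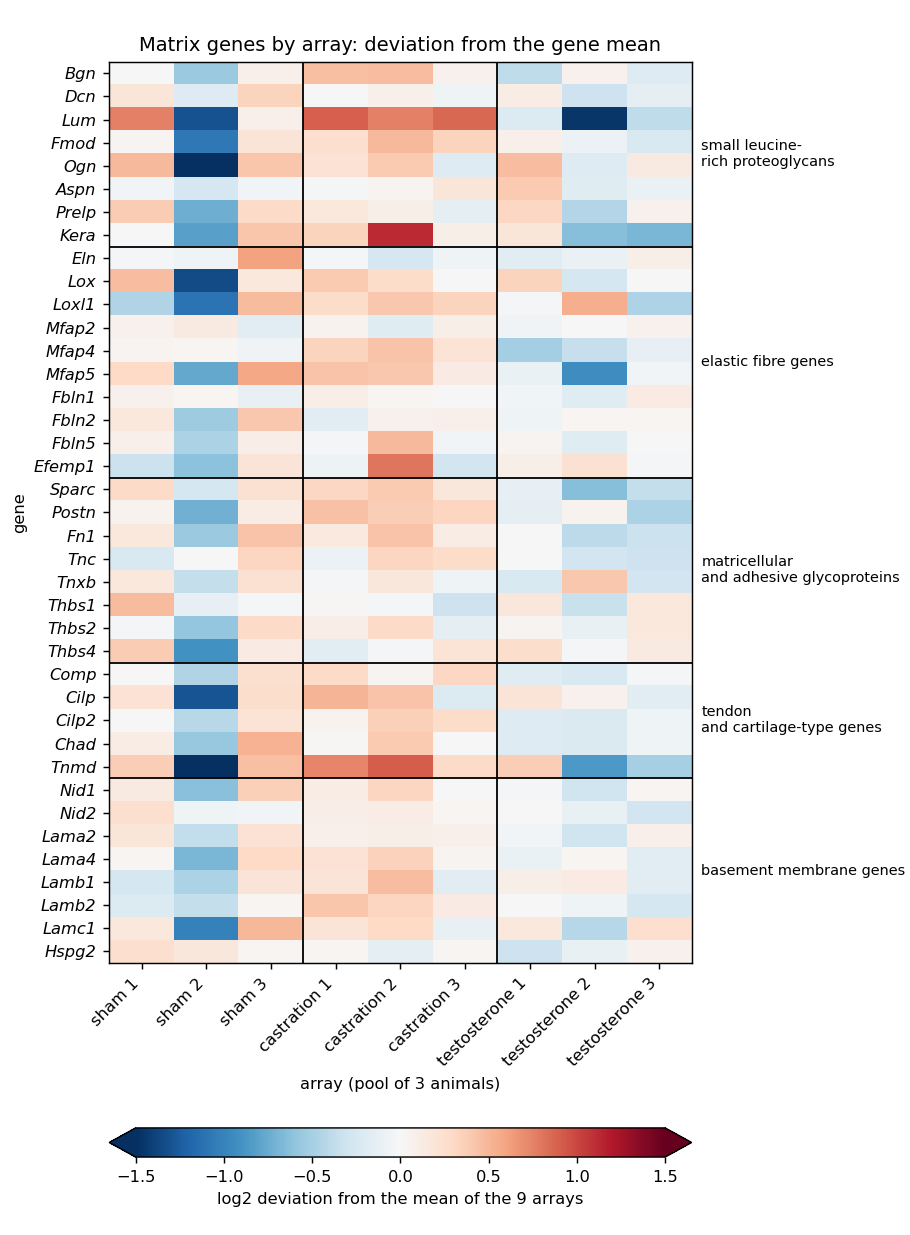
Heat map of the log2 deviation of each of the 39 matrix genes (rows, by role) from its mean over the 9 arrays (columns), with the colour scale ending at 1.5 in either direction. Sham 2 is the lowest array in 27 genes, and castration 2 is the highest in 13.

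The 3 pairwise comparisons share arrays, so they are not independent of each other. The castration effect, which asks how matrix genes stand without testicular hormone, was read from castration against sham. With all arrays 33 of 39 genes (84.6%) averaged higher after castration, with a median log2 difference of 0.24, while 52.9% of all genes were higher and their median was 0.01. Lamb2, Mfap4, Postn and Bgn were the genes with an unadjusted p under 0.05, all higher. That is 4 of 39 genes, against 3.09% of all genes called higher and 1.63% called lower at this p. The 3 castration arrays lay wholly above the 3 sham arrays in 5 genes (Fmod, Aspn, Mfap4, Postn and Lamb2), against 5.17% of all genes, and wholly below in none, against 3.72%. None of the 39 passed an adjusted p of 0.05 in limma, where 0% of all genes passed, and the smallest adjusted p of the 39 was 0.838. The higher average rested on sham 2: without sham 2 and testosterone 2 the median was 0.03, 21 genes were higher and 18 lower, and 51.6% of all genes were higher. There, an unadjusted p under 0.05 was reached by 3 genes in the higher direction (2.72% of all genes) and 3 in the lower (2.65%). With all arrays but 1, the count of 4 became 10 without sham 3 and 1 without castration 1 or castration 2. The median was 0.39 without sham 3 and 0.16 without castration 2. Shares of all genes at these omissions are not given here, so the counts show only how the list varied.

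Replacement of the hormone was read from testosterone against castration, and here the matrix genes were lower on average with and without the arrays that stood apart. Of 39 genes, 35 (89.7%) averaged lower with testosterone, with a median of −0.21, while 51.7% of all genes averaged lower and their median was −0.01. Without sham 2 and testosterone 2, 30 were lower, against 51.6% of all genes, and the median was −0.22. The 3 testosterone arrays lay wholly below the 3 castration arrays in 14 genes, 35.9% of those measured, against 4.79% of all genes. They lay wholly above in none, against 4.22%. At an unadjusted p under 0.05, 8 genes were lower and 0 higher, against 1.84% and 1.64% of all genes. Without sham 2 and testosterone 2 the counts were 14 and 0, against 2.9% and 2.88%. Sham 2 is in neither group here, so it enters these counts only through the spread estimated over all groups. Leaving out 1 array gave 5 genes without castration 1 or testosterone 2, 4 without castration 2 or testosterone 3, and 14 without sham 2. For these omissions no share of all genes is given to compare them with. After adjustment in limma none of the 39 passed, where 0% of all genes passed. The smallest adjusted p-values were 0.187 for Mfap4 and 0.754 for Sparc.

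Testosterone against sham, the overall effect, compares animals that both had androgen, from pellet or testes. The median was −0.02, with 24 of 39 genes lower and 15 higher, against 47.9% and 52.1% of all genes. Sparc, Mfap4 and Hspg2 were lower at an unadjusted p under 0.05 (1.7% of all genes) and none was higher (2.64% of all genes). Only Mfap4 had all testosterone arrays below all sham arrays (3.64% of all genes), and none had them above (2.83%). None passed the adjusted threshold in limma (0% of all genes). Without sham 2 and testosterone 2, 35 of 39 genes were lower, against 48.9% of all genes, with a median of −0.23. An unadjusted p under 0.05 was then reached by 9 in the lower direction (1.62% of all genes) and 0 in the higher (1.51%). Without sham 2 alone the median was −0.26 and 5 genes were higher, so the near balance with all arrays depended on that array. The count of 3 at an unadjusted p under 0.05 was 10 without sham 2 and 1 without sham 1, testosterone 1 or testosterone 2. Here too, shares of all genes at these omissions are not given. The median turned to 0.05 without sham 1 and 0.10 without sham 3.

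The castration arrays, the only ones from mice with neither testes nor testosterone pellet, were also set against the mean of the other groups. This contrast shares its arrays with the comparisons above and is no independent evidence. In 34 of 39 genes castration was higher (median 0.23), against 51.7% of all genes. On the 7 arrays the counts were 27 and 12 (median 0.10), against 51.6% of all genes higher. Castration lay above all 6 other arrays in 4 genes (Fmod, Mfap4, Postn and Lamb2; 1.88% of all genes) and below them in none (1.18%). An unadjusted p under 0.05 was reached by 8 genes in the higher direction (2.58% of all genes) and by 0 in the lower (1.45%). The 8 became 15 without sham 3, 4 without castration 1 and 5 without castration 2, with no share of all genes given for these omissions. The median was 0.34 without sham 3 and 0.11 without either sham 2 or castration 2. The counts without sham 2 and testosterone 2 were again 8 and 0, against 3.28% and 2.97%. Limma called 0 of 39 genes here after adjustment, against 0.055% of all genes, and 0 in an F test over the 3 groups, against 0%. In the F test 5 of the 39 genes had an unadjusted p under 0.05, against 3.64% of all genes.

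**Figure D2:**
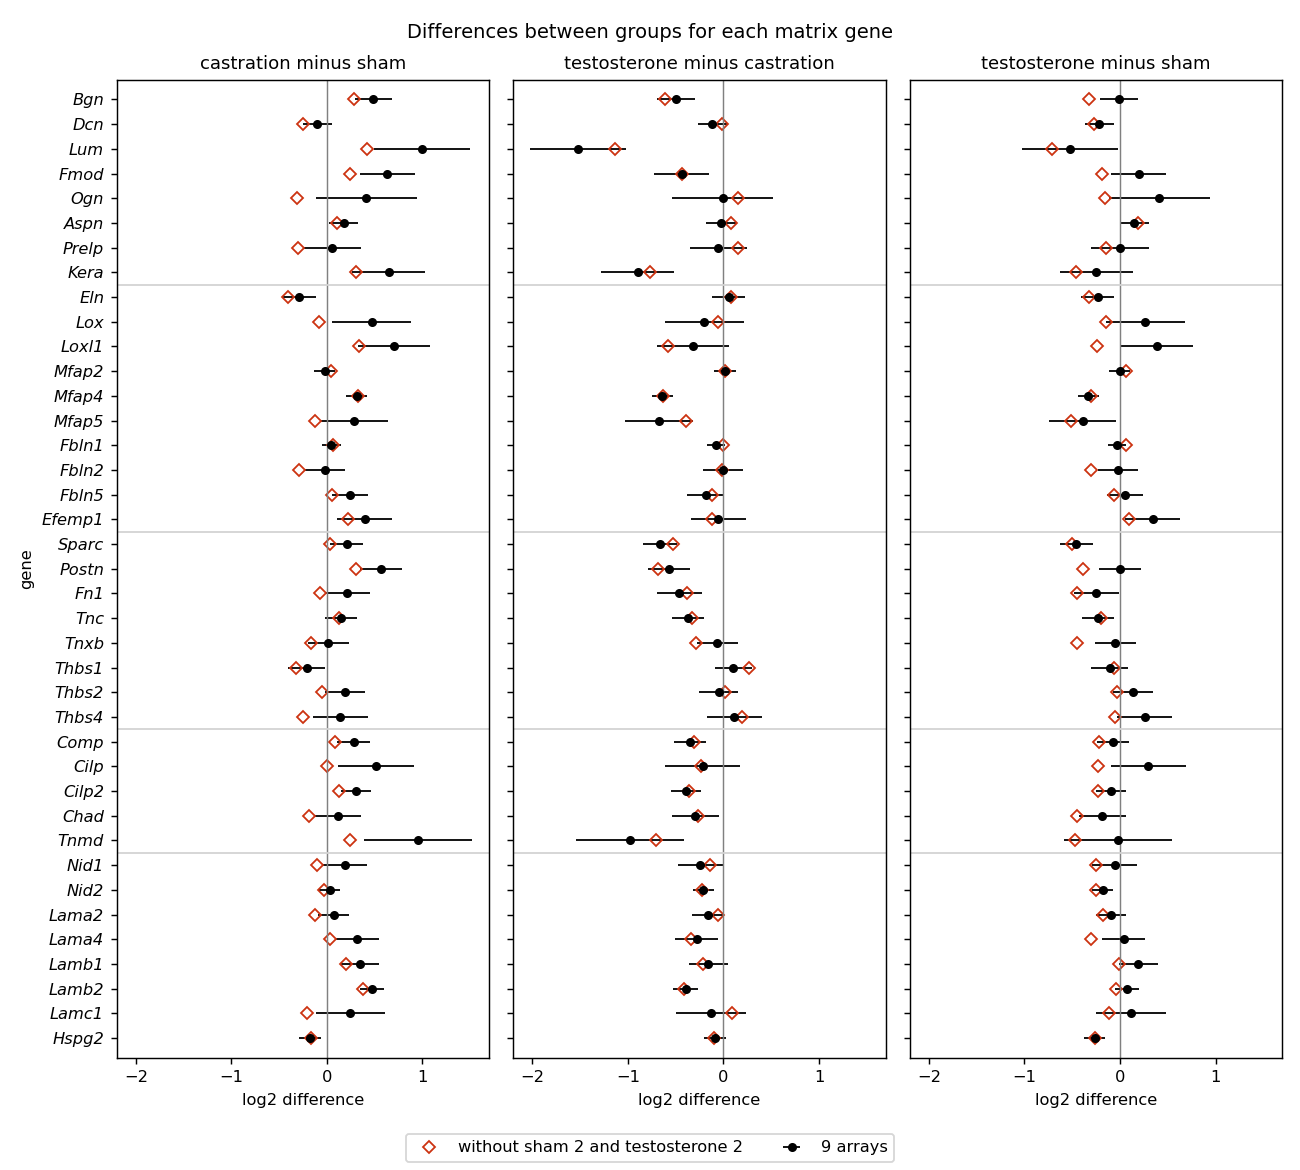
Log2 difference of each of the 39 genes (rows, by role) in the 3 pairwise comparisons. Black points with bars are the difference and its standard error on 9 arrays, and open diamonds are the difference without sham 2 and testosterone 2. In the middle panel 35 points lie below 0, and Lum lies lowest at −1.52.

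Among the small leucine-rich proteoglycans the differences were unequal. In testosterone against castration they ran from −1.52 to −0.01 over the 8 genes, with a median of −0.28. Lum encodes lumican, which limits collagen fibril diameter. It read 6.91, 4.84 and 6.22 in sham 1 to 3, 7.04, 6.91 and 7.01 after castration, and 5.94, 4.69 and 5.77 with testosterone. The castration arrays lay close together and above every testosterone array, while sham spread from the testosterone range up to the castration range. Lum was 2.87-fold lower with testosterone than after castration (log2 −1.52, SE 0.50, unadjusted p = 0.0146), and the log2 difference was −1.13 without sham 2 and testosterone 2. Against sham it was −0.53 (SE 0.50), and −0.71 without both arrays, but single arrays moved it from −1.10 without sham 2 to −0.066 without sham 1. Bgn encodes biglycan, a proteoglycan that binds collagen and transforming growth factor beta. It read 7.71, 7.15 and 7.77 in sham, 8.15, 8.17 and 7.77 after castration, and 7.32, 7.77 and 7.51 with testosterone. Castration 1 and 2 were the highest arrays, while castration 3 lay just below sham 3 and barely above testosterone 2. Its log2 difference was 0.49 (SE 0.20, unadjusted p = 0.0364) for castration against sham and −0.50 (SE 0.20, unadjusted p = 0.0328) for testosterone against castration, with the same sign in all 3 of its probe sets. On the 7 arrays these were 0.29 (unadjusted p = 0.0708) and −0.62.

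Fmod, fibromodulin, guides collagen cross-linking and fibril assembly and is abundant in tendon. It read 10.22, 9.10 and 10.36 in sham, 10.42, 10.66 and 10.50 after castration and 10.25, 10.08 and 9.95 with testosterone, so castration lay above all 6 other arrays. The log2 difference of castration against sham was 0.63 (SE 0.29), and 0.24 without sham 2 and testosterone 2, with the same sign in all 6 probe sets. Kera, keratocan, a corneal proteoglycan also found in tendon, read 5.48, 4.67 and 5.91 in sham, 5.82, 6.60 and 5.57 after castration and 5.67, 4.84 and 4.80 with testosterone. Castration 2 stood highest, and testosterone 1 lay among the castration arrays. Its log2 difference was −0.90 (SE 0.38, unadjusted p = 0.0452) for testosterone against castration, and −0.77 (unadjusted p = 0.0622) without sham 2 and testosterone 2.

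Decorin, mimecan, asporin and PRELP, encoded by Dcn, Ogn, Aspn and Prelp, differed less between castration and testosterone. Dcn, the most studied of the small proteoglycans of muscle and tendon, read 11.16, 10.80 and 11.33 in sham, 10.98, 11.06 and 10.93 after castration and 11.10, 10.68 and 10.85 with testosterone, and the groups overlapped throughout. Its log2 difference was −0.12 (95% interval −0.46 to 0.23) for testosterone against castration and −0.22 (SE 0.15) for testosterone against sham, and its 2 probe sets had opposite signs in both. On the 7 arrays these were −0.02 and −0.27, and the second ran from −0.37 without sham 2 to −0.10 without sham 3. The intervals were −0.74 to 0.63 for Prelp and −1.21 to 1.2 for Ogn, which include changes of either sign. Ogn read 5.06 on sham 2 and 6.59 to 7.27 on the other 8 arrays.

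Several of these genes sit side by side in the RefSeq gene order of GRCm38.p6, where Dcn, Lum and Kera follow each other on chromosome 10, Prelp and Fmod are next to each other on chromosome 1, and Aspn and Ogn lie on either side of Omd on chromosome 13. For testosterone against castration Aspn and Ogn differed by −0.03 and −0.01, so this pair was nearly equal. Measured within each array, the log2 distance of Lum to Dcn changed by −1.41 from castration to testosterone, and that of Kera to Dcn changed by −0.78. In sham 1 to 3 the distance was −4.26, −5.96 and −5.10 for Lum, and −5.69, −6.12 and −5.42 for Kera. After castration it ran from −4.15 to −3.92 for Lum and from −5.35 to −4.46 for Kera. With testosterone it ran from −6.00 to −5.08 for Lum and from −6.05 to −5.43 for Kera. In both pairs the 3 testosterone arrays did not overlap the 3 castration arrays (exact permutation test, two-sided p = 0.1, the smallest that 3 against 3 arrays allow, and 0.15 adjusted over 3 pairs). The distance of Fmod to Prelp changed by −0.38 and overlapped (exact permutation test, p = 0.2). These pairs were chosen after their values had been seen, and the adjustment over 3 pairs does not allow for that choice.

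**Figure D3:**
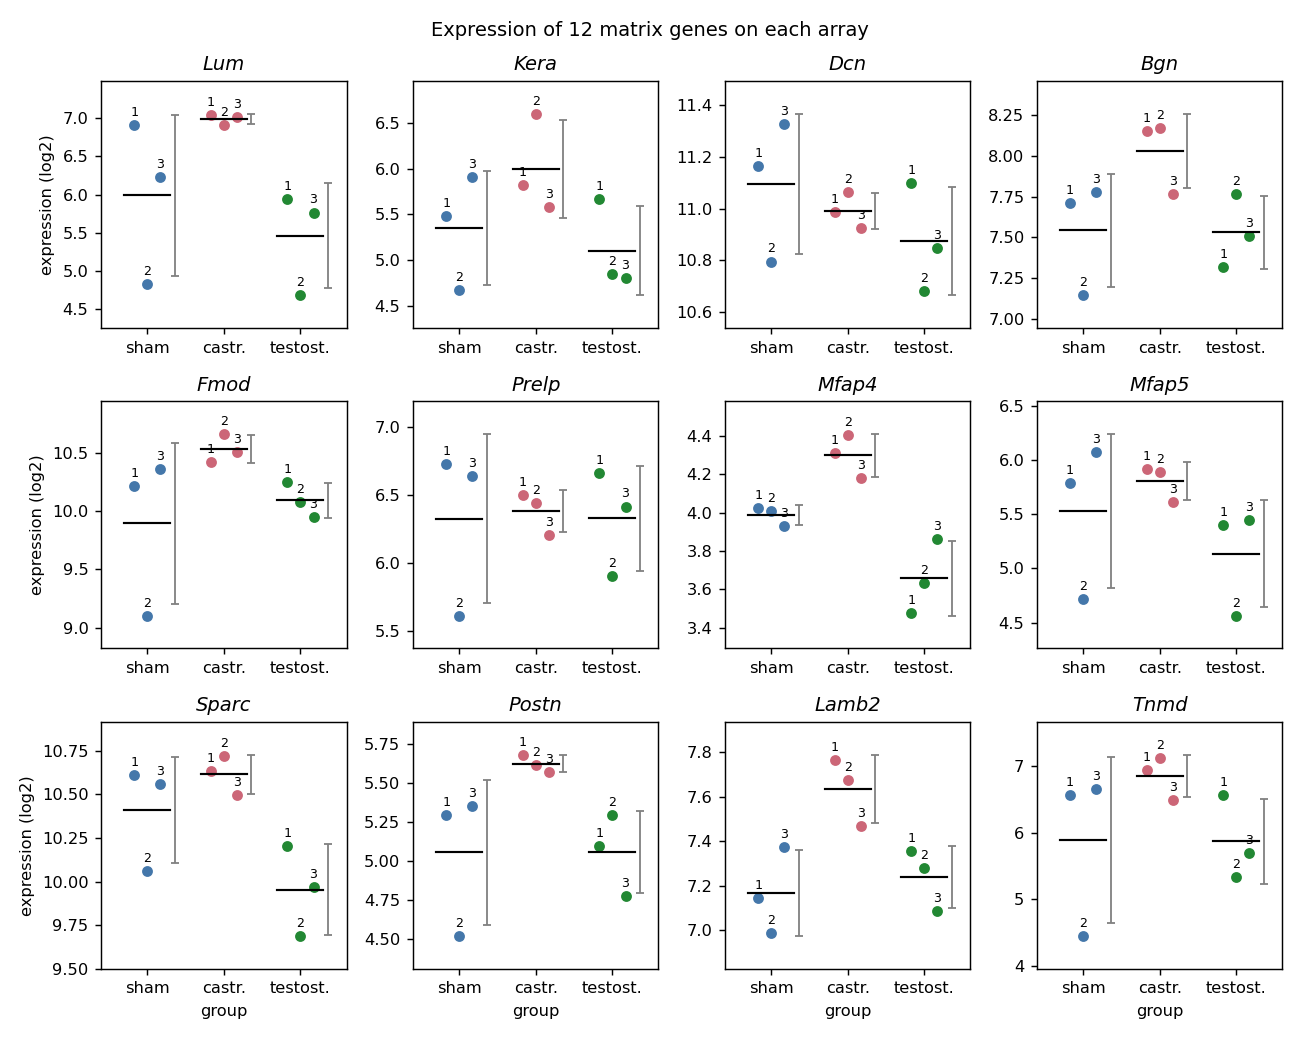
Expression (log2) of 12 matrix genes on each array, numbered by replicate within sham, castration and testosterone. Horizontal lines are group means and grey bars are the mean ± SD of 3 arrays. Castration lies above all 6 other arrays for Fmod, Mfap4, Postn and Lamb2, whereas the groups overlap for Dcn and Prelp.

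Of the 10 elastic fibre genes, Mfap4 stood out with the smallest p of all 39 genes. It encodes a microfibril-associated glycoprotein of elastic fibres. Its values were 4.02, 4.01 and 3.93 in sham, 4.31, 4.40 and 4.18 after castration and 3.48, 3.64 and 3.86 with testosterone. The groups did not overlap in any pair, with castration highest and testosterone lowest. Mfap4 averaged 3.99 ± 0.05 (SD, n = 3) in sham, 4.30 ± 0.11 after castration and 3.66 ± 0.19 with testosterone. It was 1.56-fold lower with testosterone than after castration (log2 −0.64, SE 0.11, limma unadjusted p = 0.000304, adjusted p = 0.187). Compared with sham it was higher by log2 0.31 after castration and lower by 0.33 (log2 −0.33) with testosterone, each with SE 0.11. Without sham 2 and testosterone 2 the 3 differences were 0.32, −0.63 and −0.31. An exact permutation test of testosterone against castration gave p = 0.1, the smallest possible. With limma array weights Mfap4 passed the adjusted threshold when castration was set against sham and testosterone averaged, whereas its adjusted p without such weights was 0.291. How many of all genes passed with these weights is not given here. A single probe set measures Mfap4, and its mean level of 3.98 was not far above the median of all gene means.

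Mfap5, which binds fibrillin microfibrils, read 5.79, 4.72 and 6.08 in sham, 5.92, 5.89 and 5.61 after castration and 5.40, 4.56 and 5.45 with testosterone. Every testosterone array lay below every castration array, testosterone 2 by the widest margin. The log2 difference was −0.67 (SE 0.35), and −0.39 without sham 2 and testosterone 2. Loxl1, a lysyl oxidase that cross-links elastin, read 5.76, 5.11 and 6.69 in sham, 6.49, 6.62 and 6.55 after castration and 6.20, 6.76 and 5.76 with testosterone. Castration was tight and the other groups spread on either side of it. Its log2 difference of castration against sham was 0.70 (SE 0.38), 0.33 without sham 2 and testosterone 2, and 1.12 without sham 3.

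Elastin itself, Eln, read 5.02, 4.99 and 5.66 in sham, 5.02, 4.80 and 4.98 after castration and 4.89, 4.94 and 5.13 with testosterone, and only sham 3 was apart. Its log2 difference of testosterone against sham was −0.23 (SE 0.18), −0.33 on the 7 arrays, −0.35 without sham 2 and −0.016 without sham 3. Lox, the main lysyl oxidase, read 3.53 on sham 2 and 4.61 to 5.33 on the other arrays. Its difference of castration against sham was 0.47 (SE 0.41), and −0.08 without sham 2 and testosterone 2. The fibulins Fbln1, Fbln2 and Fbln5 differed by log2 −0.08, −0.00058 and −0.19 for testosterone against castration, and Mfap2 by 0.02 (95% interval −0.23 to 0.27). Efemp1, another fibulin, was dim, at 2.64 to 4.05.

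Matricellular and adhesive genes included Sparc, which encodes a collagen-binding glycoprotein and was the member of this role with the smallest p. Sparc read 10.61, 10.06 and 10.56 in sham, 10.63, 10.72 and 10.50 after castration and 10.21, 9.69 and 9.97 with testosterone. All testosterone arrays lay below all castration arrays, and sham 2 lay within the testosterone range while sham 1 and 3 lay with castration. The mean was 10.62 ± 0.11 (SD, n = 3) after castration and 9.95 ± 0.26 with testosterone, 1.58-fold lower (log2 −0.66, SE 0.18, limma unadjusted p = 0.00477, adjusted p = 0.754). Against sham the log2 difference was −0.46 (SE 0.18, unadjusted p = 0.0300), and for castration against sham it was 0.21 (SE 0.18) and 0.03 without sham 2 and testosterone 2. For testosterone the 7 arrays gave −0.53 against castration and −0.50 against sham. Of its 3 probe sets, 2 had the lower direction with testosterone.

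Postn, periostin, a matricellular protein of collagen-rich tissue, read 5.29, 4.52 and 5.35 in sham, 5.68, 5.61 and 5.57 after castration and 5.09, 5.29 and 4.77 with testosterone. The castration arrays lay close together and above all others. Its log2 difference was 0.57 (SE 0.22, unadjusted p = 0.0313) for castration against sham and −0.57 (SE 0.22, unadjusted p = 0.0311) for testosterone against castration. Without sham 2 and testosterone 2 these were 0.30 and −0.69, so the first was smaller there. Fn1, fibronectin, an adhesive glycoprotein, read 7.46, 6.75 and 7.72 in sham, 7.44, 7.72 and 7.40 after castration and 7.31, 6.90 and 6.97 with testosterone, all 3 of the latter below castration. The log2 difference was −0.46 (SE 0.24), and −0.38 on the 7 arrays, and its other probe set gave a positive difference.

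Tnc, tenascin C, associated with matrix remodelling, read 3.50, 3.73 and 4.05 in sham, 3.65, 4.05 and 4.01 after castration and 3.73, 3.44 and 3.42 with testosterone. The groups overlapped, and the log2 difference of testosterone against sham was −0.23 (SE 0.17), with opposite signs in its 2 probe sets. It was −0.20 on the 7 arrays, −0.36 without sham 1 and −0.085 without sham 3. The thrombospondins Thbs1, Thbs2 and Thbs4 differed by 0.10, −0.05 and 0.12 for testosterone against castration, and Tnxb, tenascin X, by −0.06. None of these 4 had groups that did not overlap. Thbs4, typical of tendon and muscle attachment, read 7.61 on sham 2 and 8.36 to 8.91 elsewhere.

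All 5 genes typical of tendon and cartilage averaged lower with testosterone than after castration, with a median of −0.35, and −0.31 without sham 2 and testosterone 2. All 5 were lowest on sham 2. Tnmd, tenomodulin, a marker of tendon cells, read 6.57, 4.45 and 6.65 in sham, 6.94, 7.11 and 6.49 after castration and 6.57, 5.34 and 5.70 with testosterone. Testosterone 1 lay above castration 3, so these groups overlapped. The log2 difference was 0.96 (SE 0.57) for castration against sham, and 0.24 without sham 2 and testosterone 2, and −0.98 (SE 0.57) for testosterone against castration, and −0.71 on the 7 arrays. Cilp2, a cartilage intermediate layer protein, read 4.58, 4.17 and 4.79 in sham, 4.63, 4.94 and 4.86 after castration and 4.39, 4.36 and 4.51 with testosterone. No testosterone array reached the castration range, and the difference was −0.39 (SE 0.16, unadjusted p = 0.0351), and −0.36 on the 7 arrays.

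Comp, cartilage oligomeric matrix protein, which organises collagen in tendon and cartilage, read 5.58, 5.13 and 5.82 in sham, 5.86, 5.62 and 5.89 after castration and 5.40, 5.35 and 5.56 with testosterone. Testosterone again lay wholly below castration, by log2 −0.35 (SE 0.17), and by −0.31 on the 7 arrays. Chad, chondroadherin, a leucine-rich protein that attaches cells to collagen, read 6.16, 5.48 and 6.57 in sham, 6.07, 6.44 and 6.04 after castration and 5.85, 5.83 and 5.97 with testosterone. Its difference was −0.30 (SE 0.25) against castration, without overlap, and −0.18 (SE 0.25) against sham. On the 7 arrays these were −0.27 and −0.45, and the second ran from −0.48 without sham 2 to 0.068 without sham 3. Cilp read 6.86, 5.35 and 6.91 in sham, 7.15, 7.07 and 6.45 after castration and 6.84, 6.71 and 6.48 with testosterone. For testosterone against sham Cilp gave 0.30 (SE 0.39), which turned to −0.23 without sham 2 and testosterone 2 and was 0.56 without sham 3 and 0.54 without sham 1.

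In the basement membrane, the 8 genes averaged lower with testosterone than after castration by a median of −0.19, with a narrow range from −0.40 to −0.09. Lamb2 encodes the laminin beta-2 chain, which is concentrated at the neuromuscular junction. It read 7.14, 6.99 and 7.37 in sham, 7.77, 7.68 and 7.47 after castration and 7.35, 7.28 and 7.09 with testosterone. The castration arrays lay above all 6 others. Lamb2 averaged 7.64 ± 0.15 (SD, n = 3) after castration, 1.39-fold above sham (log2 0.47, SE 0.13, limma unadjusted p = 0.00566, adjusted p = 0.838), and testosterone differed from castration by −0.40 (SE 0.13, unadjusted p = 0.0136). Without sham 2 and testosterone 2 the differences were 0.38 and −0.42. Lamb2 has 1 probe set. With limma array weights, which gave sham 1 a weight of 4.61 and sham 2 one of 0.164, castration against sham gave Lamb2 an adjusted p of 0.0475, and over all alternatives it ran from that value to 1.0. The share of all genes that passed with the weights is not given here.

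Lamb1, the laminin beta-1 chain found along the fibre, read 5.54, 5.33 and 6.0 in sham, 6.0, 6.27 and 5.64 after castration and 5.89, 5.92 and 5.63 with testosterone. Its groups overlapped in all comparisons, and castration against sham gave 0.35 (SE 0.20), with 2 of 4 probe sets of that sign. It was 0.20 on the 7 arrays, 0.20 without castration 2 and 0.53 without sham 3. Hspg2, perlecan, a heparan sulphate proteoglycan, read 7.13, 7.05 and 6.91 in sham, 6.91, 6.75 and 6.91 after castration and 6.57, 6.77 and 6.95 with testosterone. Sham 1 and 2 were its highest arrays, and testosterone differed from sham by −0.27 (SE 0.11, unadjusted p = 0.0451), −0.26 on the 7 arrays (unadjusted p = 0.110) and −0.17 without testosterone 1. Nid2, nidogen 2, which links laminin to collagen IV, was dim at 2.98 to 3.52, with −0.21 (SE 0.11) for testosterone against castration and −0.18 (SE 0.11) against sham. On the 7 arrays these were −0.22 and −0.25, the first was −0.13 without testosterone 3 and the second −0.082 without sham 1.

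Nid1, Lama2, Lama4 and Lamc1 filled the remaining places. Lama2, the laminin alpha chain of the mature fibre whose loss causes a muscular dystrophy, read 7.24, 7.24 and 7.23 after castration, and its difference of testosterone against castration was −0.16 (95% interval −0.53 to 0.21). Lama4, the laminin alpha chain of vessels and developing muscle, differed by −0.28 (SE 0.22) without overlap, but with the other sign in its dimmer probe set. Nid1 and Lamc1 differed by −0.24 and −0.13. Lamc1 read 5.51 on sham 2 and 6.10 to 7.03 on the other arrays.

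Other matrix genes were taken from lists made for the same pathway. All 10 fibrillar and fibril-associated collagens were lower with testosterone than after castration, with a median of −0.58 and 8 without overlap, against 4.79% of all genes. At an unadjusted p under 0.05 there were 5 lower and 0 higher, against 1.84% and 1.64% of all genes. Col3a1, a fibril collagen, differed by −0.57 (SE 0.14) and Col14a1, a collagen on the fibril surface, by −0.85 (SE 0.24), and on the 7 arrays by −0.61 and −0.77. Of 6 basement membrane collagens and related genes 5 were lower (median −0.17). Of 26 other noncollagen matrix genes 14 were lower and 12 higher (median −0.03), and Ltbp4, which tethers latent transforming growth factor beta to elastic fibres, differed by −0.81 (SE 0.24), and by −0.55 on the 7 arrays. Of 14 matrix regulators and tendon transcription factors 5 were lower and 9 higher (median 0.05). Tgfb3, a transforming growth factor beta, differed by −0.49 (SE 0.15) and Ccn1, a matricellular signalling protein, by 0.56 (SE 0.22), and on the 7 arrays by −0.37 and 0.32. No gene of these 4 lists passed the limma test after adjustment in any of the 3 pairwise comparisons with all arrays. On the 7 arrays Col1a1, a chain of the main fibril collagen, passed for testosterone against castration (log2 −1.15, SE 0.14, limma adjusted p = 0.0473, against −1.24 and an adjusted p of 0.873 with all arrays), where 0.0385% of all genes passed as lower. Col1a1 is named because of that call. For castration against sham the list medians were 0.29, 0.22, 0.01 and 0.11, and without sham 2 and testosterone 2 the first was −0.02 and the second 0.05.

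Sham 2 and testosterone 2 had the lowest means over the matrix genes. There, adipocyte and immune cell markers were high as list means, but not in every member. Testosterone 2 was the lowest array for only 6 of 39 matrix genes, near its share of 14.1% over all genes. The mean deviation over all 39 matrix genes was −0.58 on sham 2 and −0.22 on testosterone 2, against 0.12 and 0.23 on sham 1 and 3, 0.07 to 0.30 after castration and −0.11 and 0.01 on testosterone 3 and 1. By role, sham 2 was lowest for the tendon and cartilage genes at −0.89 and the proteoglycans at −0.83, and at −0.47, −0.44 and −0.43 for the elastic fibre, matricellular and basement membrane genes. Adipocyte markers (10 of 12 measured) deviated by 0.71 on sham 2 and 0.98 on testosterone 2, by −0.50 to −0.40 after castration, and by −0.26 and 0.09 on sham 1 and 3 and 0.30 and −0.41 on testosterone 1 and 3. Macrophage and lymphocyte markers (10 of 10) deviated by 0.39 on sham 2 and 1.19 on testosterone 2, against −0.31 to −0.11 on the other 7 arrays. The members were mixed on sham 2: Cd74 read 8.27 and H2-Aa 7.11, against means of 6.42 and 6.06 over the arrays. Csf1r read 6.21 there, against a mean of 6.61. Mrc1 read 3.38 and Cd36, of the adipocyte list, 8.55, each the lowest of the 9 arrays. Epidermal markers (6 of 6) deviated by 0.76 on sham 2 and −0.26 to 0.21 elsewhere.

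Fibroblast markers (9 of 10) deviated by −0.33 on sham 2, −0.05 to 0.19 after castration and −0.17 to 0.07 with testosterone. Endothelial markers (8 of 8) deviated by −0.41 on sham 2, 0.06 to 0.38 after castration and −0.20 to 0.06 with testosterone. Fibre markers (8 of 8) stayed within −0.05 to 0.06, smooth muscle and pericyte markers (6 of 6) within −0.24 to 0.11 and Schwann cell markers (4 of 6) within −0.41 to 0.41. Of the cartilage and bone markers (5 of 6, −0.11 to 0.35), the cartilage genes Acan and Col2a1 averaged 3.30 and 3.37, below the median of all gene means. The part of these other cells in the matrix differences was not tested. In whole muscle, fewer cells of a type and less RNA per cell cannot be told apart.

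**Figure D4:**
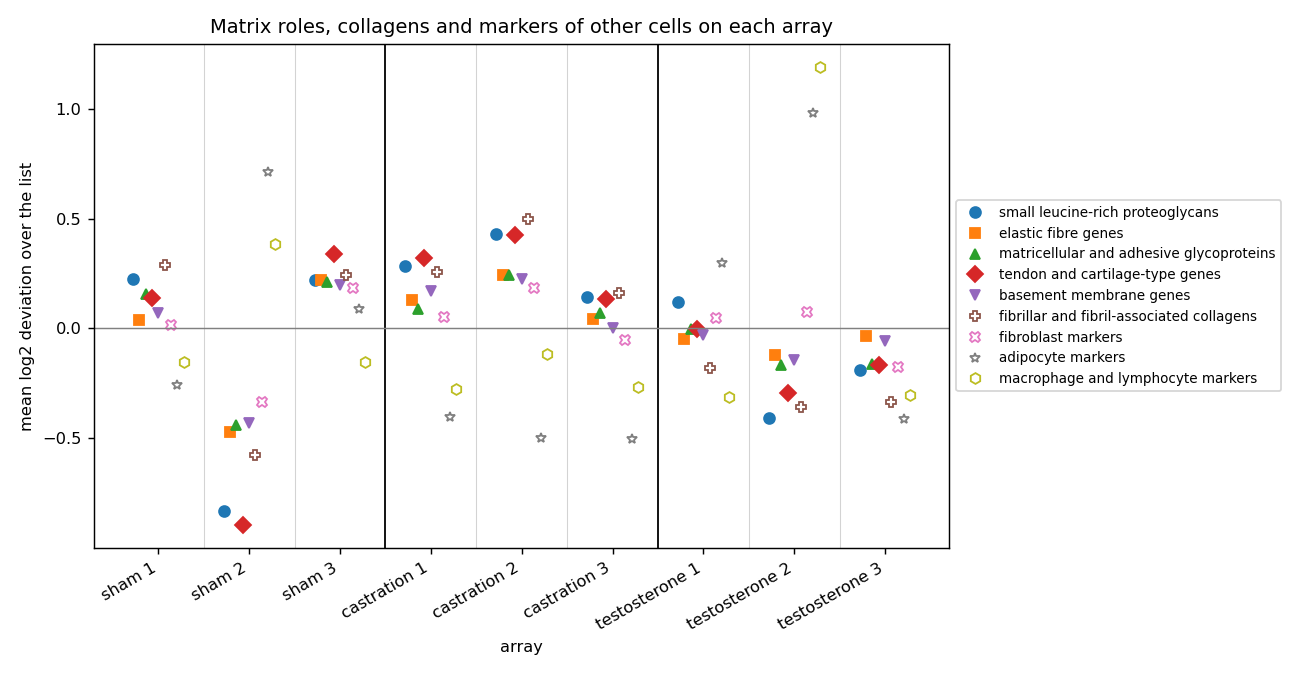
Mean log2 deviation from the gene means on each array for the 5 matrix roles (filled symbols) and for collagens and markers of other cells (open symbols). On sham 2 every matrix role lies between −0.89 and −0.43 while adipocyte markers lie at 0.71, and on testosterone 2 macrophage and lymphocyte markers lie at 1.19.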

How the data were processed

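Gastrocnemius RNA of 9 arrays (3 per group, groups from the sample titles) was analysed. Per the submitters' processing notes the authors used RMA, and they deposited log2 values per probe set, used here unchanged. The version was not named in those notes. RMA normally brings arrays to a common distribution, which removes a shift of a whole array, but the array medians still ran from 3.15 to 3.26, and which arrays were normalised together was not named. Arrays have no read depth, and 3 per group limit precision. Of 45101 probe sets, 64 were controls, 34945 had 1 gene, 932 several and 9160 none in the annotation; symbols were updated by gene identifier. Each gene kept its brightest probe set.

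Groups were compared with limma 3.58.1 in R 4.3.3 on all 9 arrays with group as the only term, two-sided, Benjamini-Hochberg adjusted over 18193 genes at 0.05. The p-values measure the spread between pools. Members, roles, lists and contrasts were chosen with earlier results of these data known. Fully described were the 2 genes of smallest p per role and pairwise comparison; Kera, Fn1 and others were added after their values were seen. Scripts were tested on simulated data. Alternatives covered pairing, probe sets, dim genes, normalisation, variance models, array weights and omitted arrays. No pair of arrays had more than 5.78% of its values identical.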

Additional observations from a re-analysis of the deposited data

How the results depend on the processing

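With limma array weights, 1 of the 39 genes passed for castration against sham (Lamb2, log2 0.50, adjusted p = 0.0475, where its adjusted p ran up to 1.0 over all alternatives) and 1 for castration against the mean of the others (Mfap4). The share of all genes passing with these weights is not given here, so these calls have no background to be read against. Sham 1 then weighed 4.61 and sham 2 0.164. In every other setting run, 0 of the 39 genes passed in each comparison and in the F test, including the replicate block, array omissions (0 to 0) and the 7 arrays. No clear pairing by replicate number was seen: 5 of 9 same-numbered pairs had deviations correlated above 0.1, from −0.49 to 0.27. With 3 arrays per group this check cannot settle whether the numbers pair the arrays. With the replicate block 0 genes passed, as without it. The median over the 39 genes ran from −0.32 to −0.16 for testosterone against castration, from 0.03 to 0.39 for castration against sham and from 0.10 to 0.34 for castration against the others. For testosterone against sham it ran from −0.26 (without sham 2) to 0.10 (without sham 3), and median centring also turned its sign (0.01). Of 626 values of the 30 named differences, 622 kept their direction. Cilp for testosterone against sham turned to −0.17 with array weights, −0.22 without sham 2 and −0.23 without sham 2 and testosterone 2, and Chad to 0.068 without sham 3; over the omissions of 1 array Cilp ran from −0.22 to 0.56 and Chad from −0.48 to 0.068. The cause was not tested. The number of genes at an unadjusted p under 0.05 for testosterone against castration ran from 4 to 16, and was 5 without castration 1, 4 without castration 2, 5 without testosterone 2, 4 without testosterone 3 and 14 without sham 2. Sham 2 enters that number only through the spread estimated over all groups. The share of all genes at these settings, other than the 9 and the 7 arrays, is not given here.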
